A study of Arabidopsis thaliana with 4 samples.

Results

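The BAG co-chaperones of Arabidopsis thaliana, BAG1 to BAG7, were followed at the level of ribosome footprints, the stretches of mRNA that translating ribosomes protect from nuclease. The 7 genes were taken by their locus identifiers and all 7 were found among the 27554 genes with an identifier in the deposited table. They are BAG1 (AT5G52060), BAG2 (AT5G62100), BAG3 (AT5G07220), BAG4 (AT3G51780), BAG5 (AT1G12060), BAG6 (AT2G46240) and BAG7 (AT5G62390). Whole seedlings aged 6 days were either wild type (WT) or carried, in the WT background, a construct for constitutive ClpD overexpression (line 5), with 2 libraries in each group. Line 5 is a single line, so an effect of the ClpD construct and any other property of that line cannot be told apart. The sources used here do not name the promoter of the construct, the growth conditions or any pooling of seedlings. Seedlings were lysed with cycloheximide, which halts elongating ribosomes, and footprints were made with RNase I; matched RNA-seq was not analysed here, so footprint changes include changes in mRNA amount. Per the design text, line 5 seedlings accumulated the ClpD precursor, and the study asked which genes respond at the level of transcription and which at translation.

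BAG proteins share the BAG domain, which docks on the ATPase domain of HSP70 chaperones; in animal cells this docking speeds nucleotide exchange and so the release of the bound client. In Arabidopsis, BAG1 to BAG4 also carry a ubiquitin-like domain, while BAG5, BAG6 and BAG7 carry a calmodulin-binding IQ motif. BAG1 is known as a partner of cytosolic HSC70 in the proteasomal removal of plastid proteins that were not imported, and BAG6 as a heat-induced member with roles in basal resistance to fungi.

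The BAG genes did not move as a group in line 5. One gene, BAG6, rose 28.0-fold and went from the lowest per-length level of the family in WT to the third highest in line 5. BAG2 fell to a level 2.54-fold below WT. BAG1, the most abundant of the members with a ubiquitin-like domain, lay 1.45-fold lower and narrowly missed the threshold, and BAG3, BAG4, BAG5 and BAG7 were not called either. Of the 7 genes tested, 1 was called higher and 1 lower by edgeR's quasi-likelihood test with a Benjamini-Hochberg adjusted p under 0.05 over all 18737 genes tested, of which 6.72% were called higher and 8.72% lower. The median log2 fold change (line 5 over WT) was 0.04 over the 7 genes and 0.0023 over all genes tested.

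Each library held between 27260818 and 42291527 counts, and both line 5 libraries were deeper than both WT libraries. ClpD (AT5G51070, listed as ERD1) was at 167 and 175 CPM in WT and at 3112 and 3302 CPM in line 5, where CPM is the deposited count as a share of the library, in parts per 1e+06, after scaling by TMM, a factor that evens out library composition (log2 fold change 4.23, SE 0.13, edgeR, adjusted p = 0.00126). The labels do not say whether replicate libraries were grown separately, so p-values here measure only the scatter of these samples, which may be of technical origin. Among the organ markers, 4 shoot markers summed to between 24070 and 27129 CPM in WT and between 17059 and 19696 in line 5. All 4 were below WT in both line 5 libraries, and CAB2, a light-harvesting protein gene, was called lower (log2 fold change -1.03, edgeR, adjusted p = 0.0215). Of all genes tested, 33.4% lay below in this way and 8.72% were called lower. The 6 root markers summed to between 839 and 1062 CPM in WT and between 1005 and 1020 in line 5, nearly all of it from PYK10 (806 CPM in WT replicate 1). The root regulator SCR was called lower (log2 fold change -0.92, edgeR, adjusted p = 0.0249). The root regulator SHR (log2 fold change -0.08, SE 0.17) and PYK10 (0.11, SE 0.15) were not called, and for both the groups overlapped. The root hair genes SHV2 and EXPA7 and the nitrate transporter gene NRT2:1 had at most 10 counts in a library, so these markers of root cells were near absent. The 3 flower markers summed to under 1 CPM in each library. The 4 seed markers summed to 19.3 and 21.9 CPM in WT and to 8.10 and 3.01 CPM in line 5; none of the 3 tested was called and the embryo regulator LEC1 had 0 or 1 count. In whole seedlings fewer cells of a type and less RNA per cell cannot be told apart, and the part of these shifts in the results below was not tested.

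BAG6 was the member with the widest difference between the groups. It had 236 and 78 counts in WT replicates 1 and 2 and 7632 and 6789 counts in line 5 replicates 1 and 2. On the CPM scale these were 8.32 and 3.22 in WT and 168 and 159 in line 5. The line 5 libraries lay close together, the WT libraries differed 2.59-fold, and the lower line 5 value was 19.1 times the higher WT value. The log2 fold change was 4.81 (SE 0.45, edgeR, adjusted p = 0.0142), the 27th highest of the 18737 genes tested.

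How far BAG6 rose depended on which WT library was taken as the base. The increase was 50.6-fold without WT replicate 1 and 19.6-fold without WT replicate 2, with edgeR adjusted p = 0.000155 and 0.000105. Those fits take the spread from the line 5 pair alone, which for BAG6 lay 1.06-fold apart, and assume that the lone WT library varies likewise; they leave out the 2.59-fold WT difference. Without line 5 replicate 1 or 2 the increase stayed at 27.3-fold and 29.0-fold, but the adjusted p was 0.0736 and 0.148. In those fits the spread came from the WT pair alone, and over all genes edgeR called 37 higher and 14 lower, and 25 higher and 3 lower. For BAG6 the log2 fold change in the authors' deposited table is 5.04, with an FDR of 1.14e-36.

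**Figure D1:**
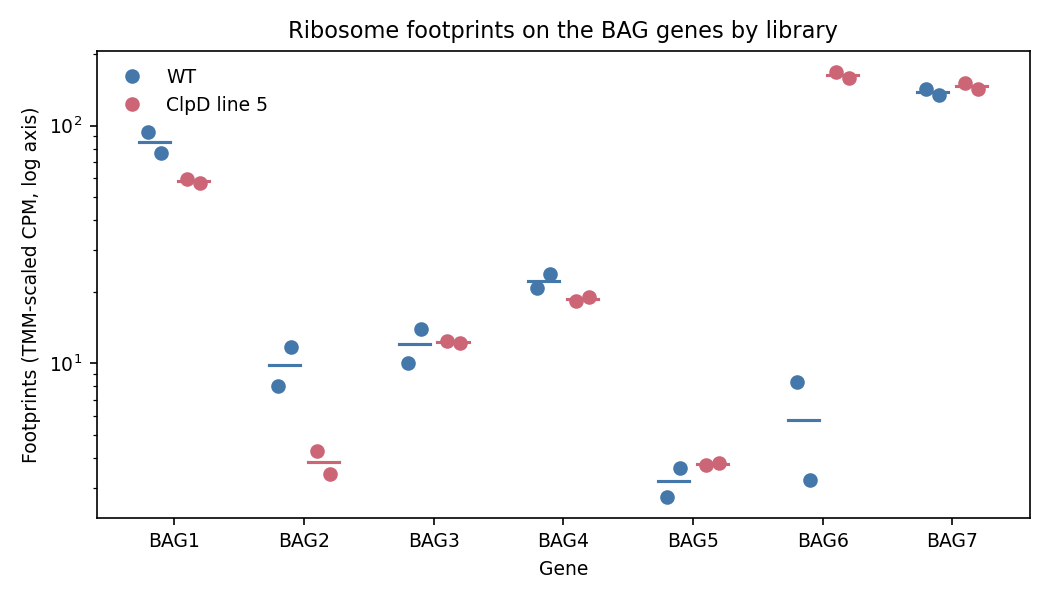
Footprints on each BAG gene in TMM-scaled CPM on a log axis; each point is 1 library, each bar the mean of the 2 libraries of a group, with WT in blue and line 5 in red. BAG6 lies at 8.32 and 3.22 CPM in WT and at 168 and 159 CPM in line 5, while the points of BAG3 and BAG7 interleave.

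The other members with an IQ motif, BAG5 and BAG7, differed little between the groups. BAG7, which resides in the endoplasmic reticulum and binds BiP, the HSP70 of that compartment, had 143 and 135 CPM in WT and 151 and 142 CPM in line 5. The groups overlapped, and the log2 fold change was 0.08 (SE 0.099, edgeR, adjusted p = 0.60). BAG5, a mitochondrial member linked to leaf senescence, had few footprints, with 78 and 88 counts in WT and 169 and 163 in the deeper line 5 libraries. Its levels of 2.75 and 3.63 CPM in WT and 3.72 and 3.81 CPM in line 5 did not overlap, but the gap was small against the WT spread (log2 fold change 0.24, SE 0.21, edgeR, adjusted p = 0.447). In the reference assembly the span of BAG7 overlaps that of 1 other gene, AT5G62380, which had 36 to 63 counts in a library against 3261 to 6866 for BAG7. No annotated gene overlapped the other 6 members.

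Among BAG1 to BAG4, BAG1, BAG2 and BAG4 had both line 5 libraries below both WT libraries. Over the 7 genes, 3 showed this order, 2 (BAG5 and BAG6) the opposite one and 2 overlapped, where 33.4% of all genes tested lay below and 34.7% above. The median log2 fold change was -0.39 over BAG1 to BAG4 and 0.24 over BAG5 to BAG7. BAG2 had 8.01 and 11.7 CPM in WT and 4.29 and 3.43 CPM in line 5, from 147 to 283 counts in a library. Both line 5 values were under the lower WT value, and BAG2 fell by 1.35 on the log2 scale (SE 0.24, edgeR, adjusted p = 0.0314). It was lower by 3.02-fold without WT replicate 1 and by 2.07-fold without WT replicate 2. Without line 5 replicate 1 or 2 it was 2.86-fold and 2.29-fold lower, but the call was lost (edgeR, adjusted p = 0.122 and 0.224), as for most genes in fits whose spread comes from the WT pair alone. For BAG2 the authors' deposited table has -1.10 on the log2 scale with an FDR of 3.69e-04.

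BAG1 was at 94.0 and 76.4 CPM in WT and at 59.7 and 57.5 CPM in line 5. The line 5 libraries nearly coincided below both WT libraries, and the log2 fold change was -0.54 (SE 0.13, edgeR, adjusted p = 0.0542). The result sat at the threshold: DESeq2 gave an adjusted p of 0.0175, edgeR without a filter on low counts 0.0468 and edgeR without WT replicate 2 an adjusted p of 0.0121, and the other settings planned between 0.0502 and 0.307. The authors' deposited table lists BAG1 with a log2 fold change of -0.31 and an FDR of 0.0261. In that table, with an FDR under 0.05, BAG6 was higher and BAG1 and BAG2 were lower, where 5.15% of all listed genes were higher and 7.5% lower.

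BAG4, which interacts with the potassium channel KAT1, had 20.7 and 23.7 CPM in WT and 18.3 and 19.1 CPM in line 5. This small separation was not called (log2 fold change -0.25, SE 0.12, edgeR, adjusted p = 0.209). BAG3 had 10.1 and 13.9 CPM in WT and 12.5 and 12.2 CPM in line 5, both inside the WT range (log2 fold change 0.04, SE 0.18, edgeR, adjusted p = 0.896). The authors' deposited table lists log2 fold changes of -0.01 for BAG4, 0.28 for BAG3, 0.48 for BAG5 and 0.32 for BAG7, with FDR values from 0.521 to 0.959. For all 7 members these deposited values equal the log2 ratio of the mean FPKM of the groups within a tolerance of 0.01, so they stand on the FPKM scale, whose offset from CPM is given below.

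**Figure D2:**
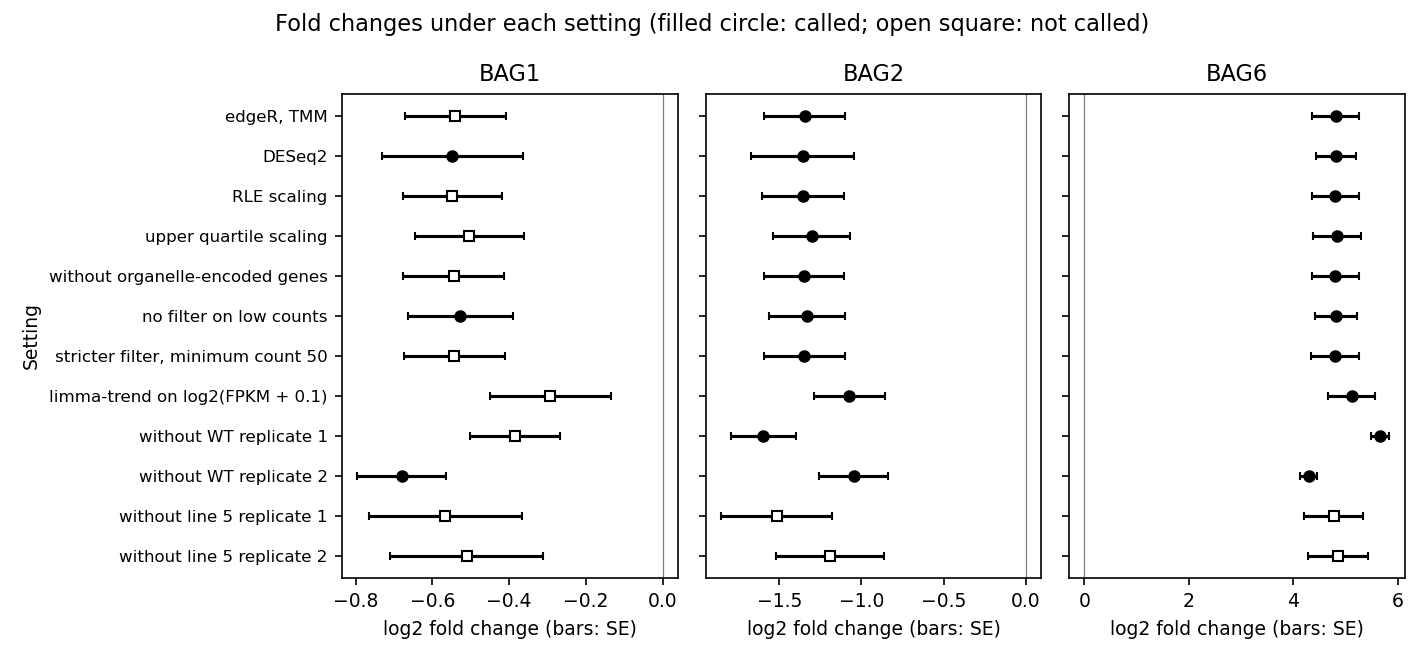
Log2 fold change (line 5 over WT) of BAG1, BAG2 and BAG6 under the settings without a replicate term, with bars for the standard error; filled circles have an adjusted p under 0.05 and open squares do not, and each panel has its own axis. BAG6 moves between 4.30 and 5.66 with the WT library that is kept, and BAG1 crosses the threshold in 3 settings.

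Levels of different genes were set side by side on the FPKM scale, which divides the count by gene length and library total. In WT the order from high to low was BAG7, BAG1, BAG4, BAG3, BAG2, BAG5 and BAG6 in both libraries. BAG7 led with 98.98 and 87.09 FPKM and BAG1 followed with 84.4 and 64.0, so that the lowest BAG7 value was only just above the highest BAG1 value. BAG3 (10.1 and 13.1 FPKM) and BAG2 (8.66 and 12.1 FPKM) overlapped, and the other neighbours in the order did not. In line 5 the order was BAG7, BAG1, BAG6, BAG4, BAG3, BAG5 and BAG2 in both libraries, with no overlap between neighbours. BAG1 at 60.4 and 59.5 FPKM and BAG6 at 57.0 and 55.0 FPKM were the closest neighbours among the 3 highest genes. The same orders came from CPM divided by the gene length that the deposited counts and FPKM values imply.

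BAG6 accounted for 1.08% and 0.435% of the summed FPKM of the family in WT and for 20.1% and 19.8% in line 5. By raw counts its share was 40.2% and 40.0% in line 5, because BAG6 is the longest gene of the family, with an implied length of 3168 bases against 680 to 1373 for the others. The share of BAG1 went from 36.4% and 30.9% of the summed FPKM to 21.3% and 21.4%, and that of BAG7 from 42.7% and 42.1% to 41.6% and 40.9%. The family summed to 219 ± 17.7 FPKM in WT against 281 ± 4.90 FPKM in line 5 (mean ± SD, n = 2 each). Without BAG6 the sums were 218 ± 16.5 and 225 ± 3.48 (SD, n = 2 each), a difference within the WT spread on this scale. On the TMM-scaled CPM scale the sums without BAG6 were 278 and 264 CPM in WT and 250 and 238 CPM in line 5. Both line 5 sums were lower. Sums of CPM weight long genes more. The FPKM scale also carries an offset between the groups: on log2(FPKM + 0.1) the median gene was 0.24 higher in line 5. The part of each in this difference was not tested. BAG1 to BAG4 together made up 127 and 114 FPKM in WT and 103 and 103 FPKM in line 5. BAG5 to BAG7 made up 105 and 92.7 FPKM in WT and 181 and 175 FPKM in line 5. Of the latter sums BAG6 supplied 2.50 and 0.90 FPKM in WT and 57.0 and 55.0 FPKM in line 5, and BAG5 and BAG7 were not called.

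**Figure D3:**
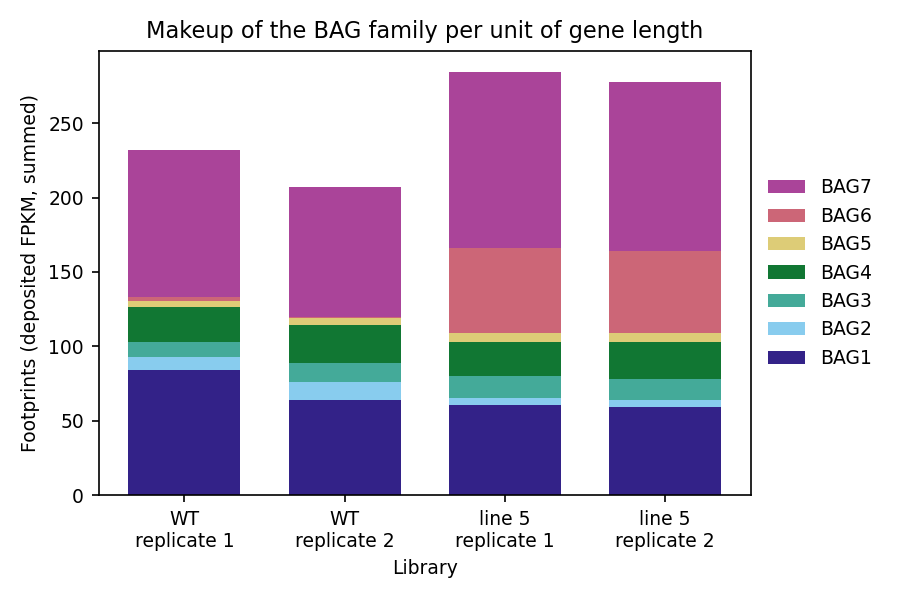
Deposited FPKM of the 7 BAG genes, stacked for each of the 4 libraries on a linear axis from 0. BAG6 makes up 20.1% and 19.8% of the column in the line 5 libraries and is barely visible in WT, while the remainder of the column is of similar height in all 4 on this scale.

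FPKM and CPM differ in scale between the groups, which matters for the smaller differences. On log2(FPKM + 0.1) the median of all genes tested was 0.24 higher in line 5. BAG7 accordingly was at 118 and 113 FPKM in line 5, above both WT values, although its CPM values overlapped. Relative to the median of all genes on each scale, the log2 differences were 0.08 on both scales for BAG7, -0.53 (FPKM) and -0.54 (CPM) for BAG1, and -1.32 and -1.35 for BAG2. Ratios within a library do not depend on this scaling. The FPKM of BAG1 was 85.2% and 73.5% of that of BAG7 in WT and 51.1% and 52.5% in line 5. For BAG2 the values were 8.75% and 13.8% in WT and 4.42% and 3.88% in line 5.

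The cytosolic HSP70 chaperones, on which BAG proteins dock, were higher in line 5. All 5 of the tested genes were called higher, where 6.72% of all genes tested were, and their median was 1.73 on the log2 scale. The remaining gene of the 6, AT1G56410 (ERD2), had 0 counts in each library. This allows up to 0.124 CPM by a limit of 3 counts that covers counting error only. Hsp70b (AT1G16030), an HSP70 with strong heat induction, went from 2.26 and 2.31 CPM to 40.9 and 42.4 CPM (log2 fold change 4.19, SE 0.12, edgeR, adjusted p = 0.00126). Hsp70-2 (AT5G02490) rose 3.31-fold and AT3G09440, listed without a symbol, 2.84-fold. HSC70-1 (AT5G02500), the highest of these genes in each library, had 1750 and 2008 CPM in WT and 3302 and 2714 CPM in line 5. Its rise was the smallest, at 1.60-fold (edgeR, adjusted p = 0.0477), and it was not called with RLE scaling, an alternative to TMM. HSP70 (AT3G12580), the gene described as HSC70-4, the chaperone that works with BAG1 on unimported plastid precursors, rose 3.86-fold, with 335 and 773 CPM in WT and 2518 and 1753 CPM in line 5. These genes are close paralogs and their reads may be split between copies.

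Set against these HSP70 genes of the same library, BAG1 footprints had a lower ratio in line 5. The HSP70 genes summed to 1501 and 1824 FPKM in WT and to 5067 and 4185 FPKM in line 5. A gene with unchanged FPKM would therefore also have a lower ratio. The FPKM of BAG1 was 5.62% and 3.51% of the summed cytosolic HSP70 FPKM in WT and 1.19% and 1.42% in line 5. For the whole family the ratio was 15.5% and 11.3% in WT and 5.61% and 6.63% in line 5. The family sum includes BAG7 of the endoplasmic reticulum and the mitochondrial BAG5, so this ratio crosses compartments. BAG6 went the other way, from 0.167% and 0.0493% to 1.13% and 1.31%. In each of these ratios the libraries of WT and line 5 did not overlap. The ratios were chosen after the values were seen and carry no test, and footprint ratios say nothing of protein amounts.

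**Figure D4:**
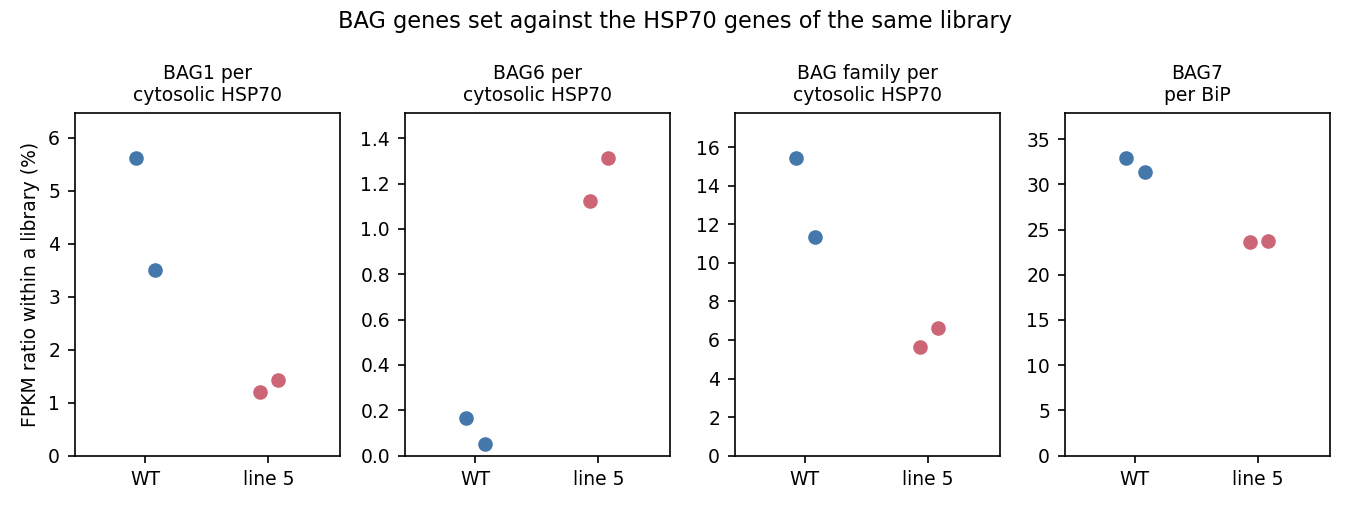
FPKM of BAG genes as a percentage of the summed FPKM of the cytosolic HSP70 or BiP genes in the same library. Each point is 1 library, WT in blue and line 5 in red, and each panel has its own axis from 0. The family panel includes BAG5 and BAG7, which lie outside the cytosol. The HSP70 and BiP sums used as the base were themselves higher in line 5. BAG1 lies at 5.62% and 3.51% of cytosolic HSP70 in WT and at 1.19% and 1.42% in line 5, while BAG6 is higher in line 5.

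Of the 3 BiP genes of the endoplasmic reticulum, BIP1 (AT5G28540) rose 1.54-fold (edgeR, adjusted p = 0.0258). BIP2 (AT5G42020), at 0.38 on the log2 scale (SE 0.11), missed the threshold. BIP3 (AT1G09080) went the other way, at -1.96 (SE 0.79), with both line 5 libraries below both WT libraries. It had only 3 to 27 counts in a library and was not called. BAG7 was at 32.9% and 31.4% of the summed BiP FPKM in WT and at 23.6% and 23.8% in line 5. The BiP sum was 300 and 278 FPKM in WT and 500 and 477 FPKM in line 5. An unchanged BAG7 FPKM would therefore also give a lower ratio. Among the other partners of single BAG proteins, WRKY29 (AT4G23550), a transcription factor that binds BAG7 in the nucleus after heat, had 3.10 and 2.97 CPM in WT and 6.71 and 8.71 CPM in line 5, a 2.54-fold rise (edgeR, adjusted p = 0.0234). KAT1 (AT5G46240), the channel partner of BAG4, rose 1.82-fold. CHIP (AT3G07370), the ubiquitin ligase that acts with HSC70 on plastid precursors, had 13.6 and 14.5 CPM in WT and 12.5 and 11.5 CPM in line 5 and was not called (log2 fold change -0.23, SE 0.12).

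Other nucleotide exchange factors of HSP70, act on the same step as BAG proteins. Among the 11 such genes, all tested, 5 were called higher, where 6.72% of all genes tested were. Their median was 0.63 on the log2 scale. All 11 values were above 0, as were 9400 of the 18737 genes tested. The cytosolic factor Fes1A (AT3G09350) stood at 34.2 and 29.5 CPM in WT and at 234 CPM in both line 5 libraries, a 7.35-fold rise (edgeR, adjusted p = 0.00288). The mitochondrial GrpE genes MGE1 (AT5G55200) and AT4G26780, listed as AR192, rose 1.87-fold and 1.92-fold, and the HSP110-type gene AT1G79930, listed as HSP91, rose 1.55-fold. The plastid GrpE genes AT5G17710 (EMB1241) and AT1G36390 had log2 fold changes of 0.06 (SE 0.096) and 0.08 (SE 0.11) and were not called.

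Calmodulins, which bind the IQ motifs of BAG5 to BAG7, were called higher for 3 of 7 genes and lower for 0, by edgeR and DESeq2 alike. With edgeR, 6.72% of all genes tested were called higher and 8.72% lower. DESeq2 called 1591 of the 18737 genes higher and 2289 lower. At an unadjusted p under 0.05, 0 calmodulins were lower in either test. By the same limit edgeR had 6713 of the 18737 genes, a count not split into higher and lower. The calmodulin list had a median log2 fold change of 0.25. CAM1 (AT5G37780) rose 2.29-fold, CAM4 (AT1G66410) 1.84-fold and CAM7 (AT3G43810) 1.34-fold, while CAM3 (AT3G56800) had -0.12 (SE 0.11). Calmodulin genes encode closely related proteins. Identity between the genes was not computed, so how reads were divided among them is uncertain. Only 1 calmodulin gene was called without WT replicate 2. Without line 5 replicate 1, and likewise without replicate 2, edgeR called 1 of the cytosolic HSP70 genes (Hsp70b) and 1 of the other exchange factors (Fes1A), and 0 of the BiP genes, the calmodulins and the 3 single partners. In those fits the spread came from the WT pair alone, as for BAG6 above.

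**Figure D5:**
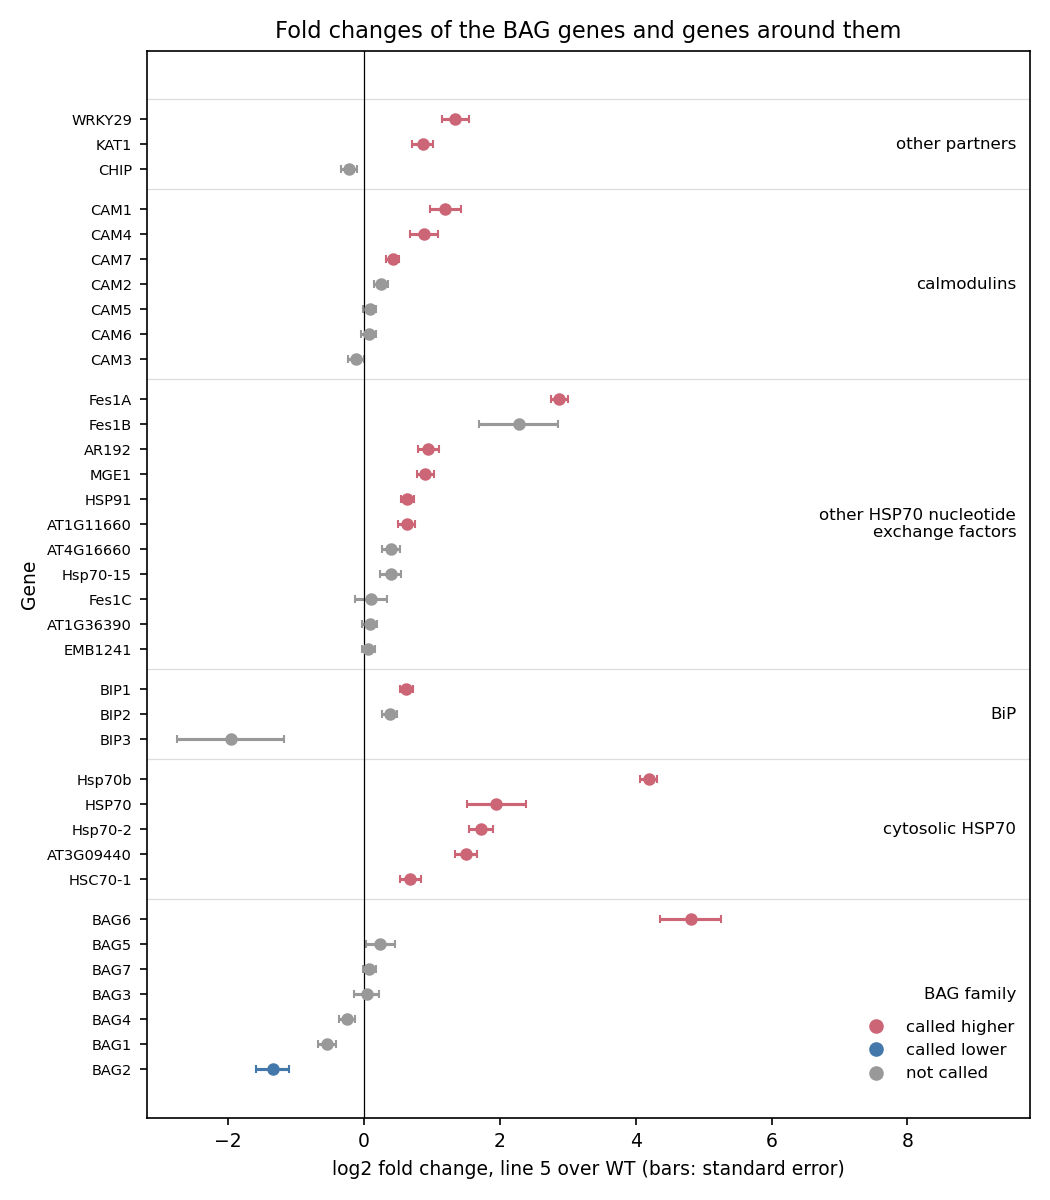
Log2 fold change (line 5 over WT) with standard error for the BAG genes and for the tested genes of the lists around them; red was called higher, blue called lower and grey not called. BAG6 (4.81) and Hsp70b (4.19) lie farthest to the right, BAG2 is the gene called lower, and BIP3 rests on 3 to 27 counts in a library.

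The genes whose profile over the 4 libraries lay closest to that of BAG6 were sought among 12917 others with a mean of at least 5 CPM, by the Euclidean distance between mean-centred log2(CPM + 0.5) values. The closest were ATHSP22.0 (AT4G10250) at 0.93 and AT1G53540 at 0.97, both annotated as HSP20-like chaperones, followed by FLS2 (AT5G46330), a receptor kinase for bacterial flagellin, at 1.05. ATHSP22.0 was under the limit of 3 counts in WT, at 0.0353 and 0 CPM, and at 11.1 and 9.69 CPM in line 5. FLS2 had 14.0 and 9.37 CPM in WT and 161 and 225 CPM in line 5. A small distance here does not mean an equal fold change: the 0.5 added to each CPM value sets most of the distance of ATHSP22.0, whose WT level gives no fold. ATHSP22.0 and AT1G53540 (2.22 and 1.86 CPM in WT, 128 and 87.1 in line 5) reached the mean of 5 CPM only through line 5, so their place beside BAG6 is a description.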

How the data were processed

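Ribosome footprint libraries were analysed from 1 table deposited by the authors. Its columns, per the file headers, are counts and FPKM for each library, plus group means of FPKM and the authors' own log2 fold changes, p-values and FDR. The deposited counts are whole numbers; per the submitters' processing notes fastp, Bowtie2, STAR, RSEM and DESeq2 were used with build TAIR10, and RSEM estimates may have been rounded. The sources used here do not give the strand setting, the counted region or the authors' test. Gene names and overlaps were looked up in RefSeq (assembly TAIR10.1, 27444 of 27554 identifiers matched), which differs in name from the authors' build, so no coordinates are printed. The 5 rows without an identifier (0.0145% to 0.0340% of a library) were left out.

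Counts were tested with edgeR 4.0.16 in R 4.3.3 (filterByExpr with a minimum count of 10, TMM, quasi-likelihood fit on group, two-sided, Benjamini-Hochberg over 18737 genes), after a check on simulated data. The SE is the log2 fold change divided by the square root of F. DESeq2 1.42.0 and limma 3.58.1, the latter on log2(FPKM + 0.1), were alternatives. Replicates differed beyond counting noise (chi-square over degrees of freedom, 33.6 in WT and 22.4 in line 5) and were kept as separate samples. The members, lists and tests were chosen with earlier results of these data known. From lists with more than 4 called genes the 4 with the smallest p were named. HSC70-1, BIP2, BIP3, CHIP, CAM3, AT5G62380, the plastid GrpE genes and the markers were named after their values were seen.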

Additional observations from a re-analysis of the deposited data

How the results depend on the processing

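BAG6 was the 1 member called higher under all alternatives that kept the 4 libraries, and BAG2 was called lower under all of them except the replicate block. The number of members called lower was 2 with DESeq2 and with no filter on low counts, where BAG1 was added. Over all genes, DESeq2 called 2289 of 18737 lower and edgeR without the filter 1965 of 23410. With the filter edgeR called 1633 of 18737 lower. Leaving out 1 library in turn gave 0 to 1 members higher and 0 to 2 lower, 1 to 5 cytosolic HSP70 genes, 0 to 1 BiP genes, 1 to 7 other exchange factors, 0 to 2 calmodulins and 0 to 2 other partners higher. BAG3, not called, had log2 fold changes from -0.18 (without WT replicate 1) to 0.30 (without WT replicate 2) in place of 0.04. With limma on log2(FPKM + 0.1), 2 BiP genes and 8 other exchange factors were higher; over all genes that scale gave 2863 higher and 1124 lower against 1260 and 1633, and its median was shifted by 0.24. Without WT replicate 1 edgeR called 2197 genes higher and 2904 lower, without line 5 replicate 1 it called 37 and 14, and without line 5 replicate 2 it called 25 and 3.

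The replicate numbers of the titles were not taken to pair libraries: there are only 2 numbers and the deviations of same-numbered libraries correlated at -0.13 across genes. With the number as a replicate block 0 members were lower (BAG2, adjusted p = 0.0691), 1 was higher, and 3 cytosolic HSP70 genes, 0 BiP genes, 1 other exchange factor, 0 calmodulins and 0 other partners were higher; 286 genes were higher and 457 lower in all. Crossed numbers, an alternative chosen after the data were seen, gave 1 member higher and 2 lower. Over all genes they gave 1530 higher and 2067 lower. With 2 libraries in a group, low counts, such as 78 and 88 for BAG5 in WT and 78 for BAG6 in WT replicate 2, limit the precision of a fold change.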

Other observations

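The ratio of the summed FPKM of the 11 other exchange factors to that of the cytosolic HSP70 genes was 25.4% and 19.6% in WT and 15.4% and 18.4% in line 5. The 11 include the mitochondrial and plastid GrpE genes, so this ratio crosses compartments. The HSP70 sum in it was itself higher in line 5, as given above. Fes1A alone went from 1.95% and 1.28% to 4.41% and 5.47% of the HSP70 sum. BAG6 was at 8.52% and 3.86% of the FPKM of Fes1A in WT and at 25.5% and 24.0% in line 5. The paralog Fes1B (AT3G53800), named after its values were seen, had 5.18 and 2.93 CPM in WT and 10.2 and 29.4 CPM in line 5, where the 2 libraries differed 2.88-fold, and it was not called by edgeR (adjusted p = 0.0588) but was called higher by DESeq2.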
